A study of Mus musculus with 12 samples.

Results

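The sites described here are poly(A) site clusters of mouse embryonic stem cells whose listed polyadenylation signal is a hexamer with exactly 5 A, other than AATAAA, the canonical signal, and AAGAAA, the same signal with G at base 3. The rule uses only the letters of the hexamer. It took 6432 of the 145099 nuclear clusters of the catalogue, which is 4.97% of the 129401 with a listed hexamer (95% Wilson interval 4.85 to 5.09%). They carry 12 different hexamers, called the 5-A hexamers below, out of 36 hexamers in the catalogue. The label fits the letters, but listing in the catalogue does not show that a hexamer acts as a signal.

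The study concerned the ends of RNA polymerase II transcripts in cells without the nuclear exosome or with U1 snRNP inhibited. All 12 libraries were made from V6.5-derived Exosc3 CKO cells, clones in which the exosome subunit Exosc3 stays present with doxycycline and is lost without it, so every group shares the conditional allele. Pairs of libraries were made with doxycycline (0.1 μg/ml) or without it for 3 days, and with or without it for 2 days with 15 μM of a U1 AMO or a Scr AMO, antisense morpholino oligonucleotides, introduced 8 hours before harvest. The ends were read by 2P-seq, which sequences from the poly(A) tail, and the catalogue gives positions in mm9 (starts are printed counted from 1). It has 7 columns, and 0 of them hold a count or level from any library. How much each site was used, and what Exosc3 loss or U1 inhibition did to it, was therefore not analysed here, and no library replicate stands behind any value below.

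In the nucleus, the cleavage and polyadenylation specificity factor (CPSF) binds the signal AAUAAA in the nascent RNA, and cleavage follows a short way downstream. Many single-base changes of this signal still work, with less efficiency, and T in the catalogue stands for U in the RNA. A-rich stretches have a second standing in such assays, since oligo-dT can prime inside them and give ends that are not poly(A) tails. The catalogue holds no measurement that tells the 2 kinds apart.

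The hexamers are shown first because both results on distance turn on which base is not A and where it stands. They are written 5′ to 3′ as the catalogue lists them, with the base that is not A in capitals.
T at base 1, 1434 sites: Taaaaa
T at base 2, 14 sites: aTaaaa
C at base 3, 311 sites: aaCaaa
C at base 4, 321 sites: aaaCaa
G at base 4, 422 sites: aaaGaa
T at base 4, 895 sites: aaaTaa
C at base 5, 812 sites: aaaaCa
G at base 5, 650 sites: aaaaGa
T at base 5, 657 sites: aaaaTa
C at base 6, 315 sites: aaaaaC
G at base 6, 241 sites: aaaaaG
T at base 6, 360 sites: aaaaaT

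Only 12 of the 18 possible hexamers with 5 A belong here. AATAAA and AAGAAA are left out by the rule, and 4 others, those with C or G at base 1 or at base 2, were listed for 0 sites. Hexamers with T were listed for 3360 sites, those with C for 1759 and those with G for 1313. Bases 4, 5 and 6 are the places where all 3 bases occur. AACAAA is the only one of the 12 that differs from AATAAA at a single base.

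Where a site had a visible choice of hexamers whatever the counting point of distances, the catalogue listed them in a single order. No 5-A hexamer stood ahead of AATAAA or AAGAAA in it. A hexamer listed for a neighbouring site on the same strand within 100 nt also lies at a known place before the first site. It was counted as in view of that site where it fell at 6 to 100 nt, the range of distances in the catalogue, whichever point of both clusters the distances were counted from. There were 1442 such cases with a different hexamer in view, over 267 pairs of hexamers, and 145 of these pairs were seen more than once. In 0 of them did the listing go both ways, and the 267 pairs together held no cycle.

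A 5-A hexamer was in view and another kind of hexamer was listed in 195 cases. The hexamer listed was AATAAA in 32 of them, a single-base variant of AATAAA with 4 A in 129, AAGAAA in 21, AAAAAA in 4 and another hexamer in 9. The hexamer listed was the nearer one in 154 of the 195 cases and the farther one in 30, and in 11 this was unclear. Over all 1442 cases it was the nearer one in 1226 and the farther one in 164. What decided the listing was not tested. In the opposite direction, a 5-A hexamer was listed with another kind in view in 24 cases. The hexamer passed over was AATAAA in 0 of them, AAGAAA in 0, a variant with 4 A in 3, AAAAAA in 7 and another hexamer in 14. These counts hold for every counting point. With distances counted from the upstream edge, the downstream edge or the midpoint of each cluster, a 5-A hexamer was passed over for AATAAA or AAGAAA or a variant in 405, 339 and 352 cases and was listed over one in 53, 105 and 52. Under those fixed points 138, 164 and 119 pairs of hexamers, of 354, 351 and 345, were listed in both orders. Among sites without a listed hexamer, 0 had a neighbour's hexamer in view. Where the same hexamer stood in view at 2 places, the nearer one was listed in 718 cases and the farther one in 0, although only 1 of the 718 was a 5-A hexamer.

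The 5-A hexamers also had a partial order among themselves, with 3 of those holding T ahead of all those with C or G. Their 30 cases with both hexamers among the 12 covered 21 pairs. Read together with the other cases, directly or through a chain of cases, AAATAA stood ahead of AAAATA, which stood ahead of TAAAAA. These 3 stood ahead of AAAAAA and of every 5-A hexamer with C or G. In the whole order AAATAA had 12 hexamers ahead and 19 behind, AAAATA had 13 and 16, and TAAAAA had 15 and 14. AAAAAT had 0 cases against the other T hexamers, stood ahead of all those with C, and stood ahead of AAAGAA and AAAAAG, while no case placed it against AAAAGA. The hexamer ATAAAA was passed over in 4 cases and listed in 0, and has no place relative to the other 5-A hexamers. AAAAGA was ahead of AAAACA, while the hexamers with C at base 3, 4 or 6 or with G at base 6 were the listed one in 0 cases with another hexamer in view. Most of these pairs rest on a single case, and sites with no close neighbour give no case. The base that is not A and the place in the order therefore move together in the comparisons of distance below, and the part of the order in them was not tested.

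**Figure D1:**
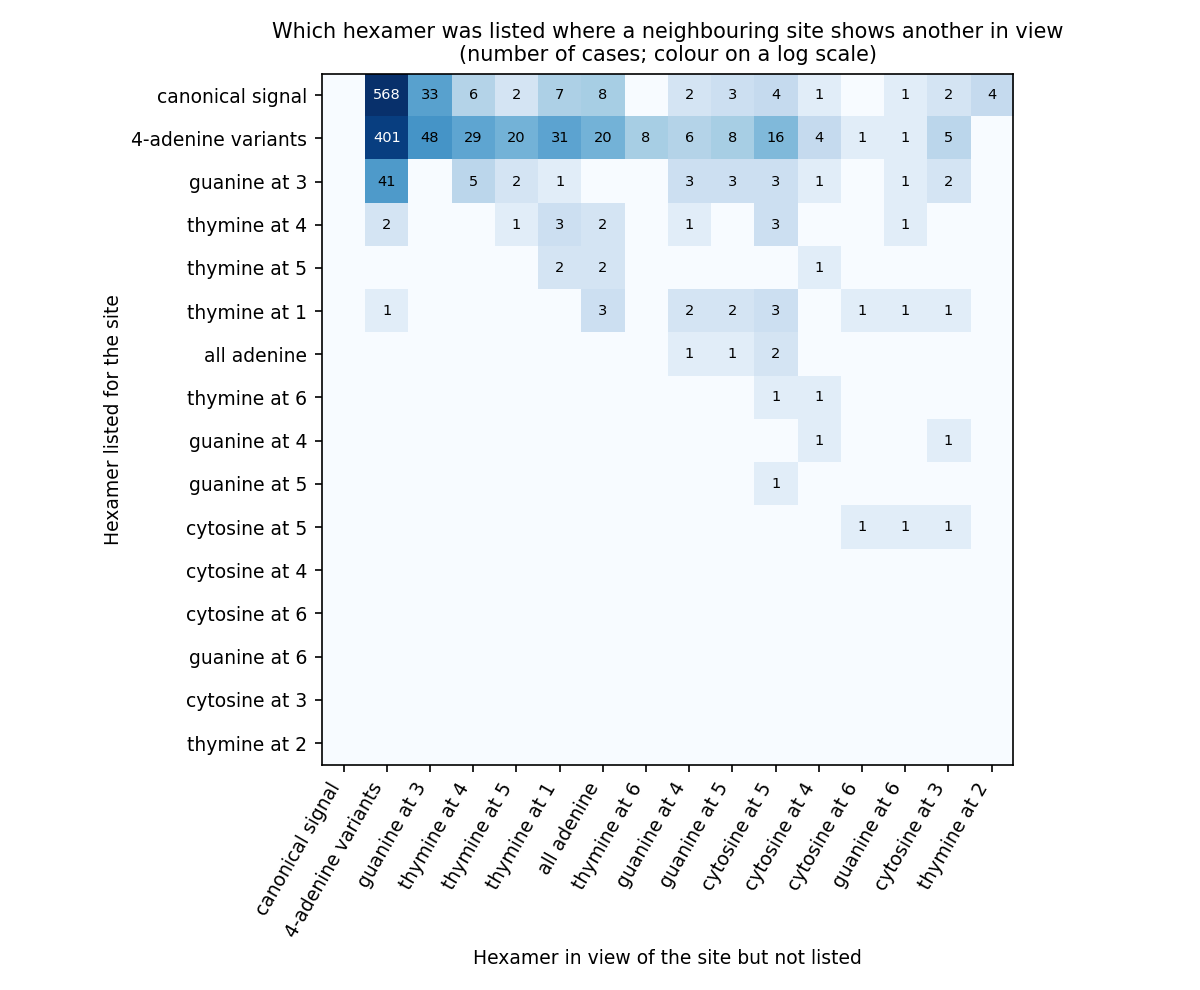
Number of cases, written in each square and coloured on a log scale, in which the hexamer of the row was listed for a site while the hexamer of the column was in view (rows and columns by base and place; the variants with 4 adenines are grouped, T at base 2 included, and hexamers of other kinds are left out). The 5-A hexamers fill the columns far more than the rows, with AATAAA listed over them in 32 cases and listed under them in 0.

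ATAAAA, the hexamer with T at base 2, was listed for 14 sites, all at 100 nt, the upper limit of the listed distances. Whatever base precedes ATAAAA, the hexamer that starts with it, 1 nt farther out, is AATAAA or a single-base variant of it. In 4 cases a neighbouring site listed AATAAA with this ATAAAA in view, and in all 4 the AATAAA could start exactly 1 nt upstream of it, given the widths of the clusters. Some other 5-A hexamers were also more frequent at the far edge. Over the 38 distances from 61 to 98 nt the 12 together had 38.4 sites per nt on average (SD 7.27), whereas 57 sites had one at 99 nt and 82 had one at 100 nt, or 68 without ATAAAA. At 100 nt, 7 of the other 11 lay more than 1 SD above their own mean, such as AAAAAT with 9 sites against 2.34 ± 1.71 per nt, and 3 lay below their mean, AAAACA with 3 sites against 4.82 ± 2.31 among them. The remaining hexamers showed no such rise, with 236 and 230 sites against a mean of 245.1 ± 17.9.

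Distances of the 5-A hexamers were spread over the whole range, with peaks near the cluster and at the usual place of a signal. Their median distance was 28 nt (quartiles 19 and 60 nt), against 22 nt (quartiles 19 and 27 nt) over all sites with a hexamer. They were most frequent at 22 nt, with 232 sites, and had a second peak of 193 sites at 7 nt and 185 at 8 nt. Between them the counts fell to 59 sites at 12 nt. Of the 6432 sites, 439 had the hexamer at 6 to 8 nt, 462 at 9 to 14 nt, 2515 at 15 to 30 nt, 1416 at 31 to 60 nt and 1600 at 61 to 100 nt. As a share of all sites with a hexamer in the same range, this was 21.3% at 6 to 8 nt (interval 19.6 to 23.1%). The share was 2.69% at 15 to 30 nt, with an interval of 2.59 to 2.80%, and 14.1% at 61 to 100 nt, with an interval of 13.4 to 14.7%. The 5-A hexamers were thus a small share where signals usually lie and a larger one on either side.

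**Figure D2:**
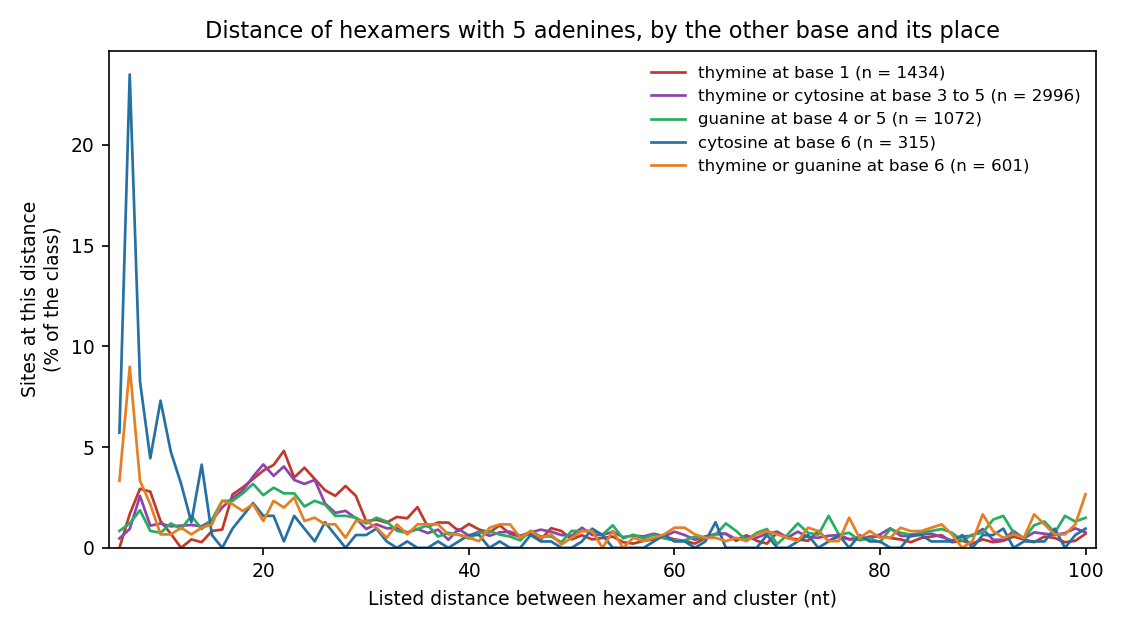
Share of the sites of each class, in percent per nt, at each listed distance in nt between hexamer and cluster, with a line for each of 5 classes by base and place. Cytosine at base 6 peaks at 7 nt with 74 of 315 sites, thymine at base 1 peaks at 22 nt with 69 of 1434, and at 61 to 100 nt cytosine at base 6 (14.3% of sites) and thymine at base 1 (18.1%) lie lowest.

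The comparisons that follow were tested over the 19 autosomes by randomly flipping the signs of their differences (a 2-sided permutation test), with p-values adjusted by Benjamini-Hochberg over 28 comparisons. The comparisons that single out base 6 or AAAAAC, that hold the place fixed, or that split 5-A sites by distance or strand were chosen after the values had been seen. Chromosomes are not biological replicates, so these p-values measure how evenly a difference held over the genome and not how it would repeat in other cultures.

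Set against single-base variants of AATAAA, the 5-A hexamers lay at 15 to 30 nt far less often. Of the 5-A hexamers only AACAAA is itself a single-base variant, so the sets were not matched in the number of changes. The comparison set is the 11 single-base variants with 4 A other than ATTAAA, the most common variant, and has 26648 sites. At 15 to 30 nt lay 39.1% of the 5-A sites (interval 37.9 to 40.3%) and 66.0% of the variants (interval 65.5 to 66.6%). By autosome the 5-A share ran from 33.5% through a median of 38.6% to 43.5%, and that of the variants from 63.5% through 65.7% to 68.3%, so the ranges did not overlap. The difference was -27.5 percentage points ± 3.53 (SD over 19 autosomes), negative on 19 of 19 (permutation test, adjusted p = 2.33e-05, the smallest among the 28 comparisons).

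Close to the cluster the order was reversed. The hexamer lay at 6 to 8 nt for 6.83% of the 5-A sites (interval 6.23 to 7.47%) and 0.968% of the variants (interval 0.857 to 1.09%), a difference of 5.79 percentage points ± 1.19 over autosomes, positive on 19 of 19 (permutation test, adjusted p = 2.33e-05). AAAAAA, a run of A alone, exceeded both with 23.8% (interval 21.7 to 26.0%), and the 5-A hexamers were below it by 17.1 points ± 7.15 (value -17.1, negative on 19 of 19, permutation test, adjusted p = 2.33e-05). On this measure the 5-A hexamers lay between the variants and AAAAAA, as did AAGAAA with 5.21% (interval 4.60 to 5.89%). The difference from AAGAAA was not tested.

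At 15 to 30 nt the 5-A hexamers stood above the other A-rich hexamers by a margin that rested on the window. AAAAAA had 32.6% of its 1511 sites there (interval 30.2 to 34.97%) and AAGAAA 32.6% of its 4514 (interval 31.2 to 33.9%). The 5-A hexamers were higher than AAAAAA by 6.19 percentage points ± 6.28 on 16 of 19 autosomes (permutation test, adjusted p = 0.000669), and higher than AAGAAA by 5.77 ± 4.88 on 17 of 19 (permutation test, adjusted p = 0.000317). With a window of 10 to 35 nt both differences changed sign and missed the threshold, at -3.07 (permutation test, adjusted p = 0.167) and -0.936 (permutation test, adjusted p = 0.464). Sites at 9 to 14 nt made up 17.8% of AAAAAA and 15.6% of AAGAAA, against 7.18% of the 5-A hexamers.

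The height of the main peak over the far distances differed among the 12 hexamers. As sites per nt at 15 to 30 nt over sites per nt at 61 to 100 nt, the ratio for all of them was 3.93 (exact binomial interval 3.69 to 4.19), against 10.8 for the variants (interval 10.4 to 11.2). AAAAAA had 6.54 (interval 5.52 to 7.78), above all 5-A hexamers together, and AAGAAA had 3.27 (interval 3.02 to 3.54). Among the 5-A hexamers TAAAAA had the highest, 6.49 (interval 5.61 to 7.52), followed by AAATAA with 5.48 (interval 4.62 to 6.51), and the intervals of these neighbours overlap. AAAAAG had the lowest, 1.74 (interval 1.22 to 2.45). The other 8 with sites in both windows lay between 2.35 and 3.89, with AAAACA and AACAAA at 3.89 each. Every one of the 11 had an interval above 1 with this window. With a window of 10 to 35 nt AAAAAG had 1.27 (interval 0.910 to 1.76). These intervals cover counting error only and treat neighbouring sites as independent, which they are not.

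By base, T marked the hexamers most often placed at 15 to 30 nt. The share over all sites of a base was 43.6% for T (interval 42.0 to 45.3%), 34.7% for C (interval 32.5 to 37.0%) and 33.4% for G (interval 30.9 to 36.0%). T exceeded G by 9.25 percentage points ± 7.26 on 16 of 19 autosomes (permutation test, adjusted p = 0.000329) and C by 7.75 ± 5.55 on 17 of 19 (permutation test, adjusted p = 0.00012). Over clusters wider than 1 nt, T exceeded C by 4.19 (permutation test, adjusted p = 0.0595). Without AAAAAC, T exceeded C by 3.46 (permutation test, adjusted p = 0.0312). C and G did not differ beyond their spread (1.51 points ± 7.74, positive on 12 of 19, permutation test, adjusted p = 0.475), though C was higher by 5.34 with a window of 10 to 35 nt (permutation test, adjusted p = 0.0465) and by 5.79 without AAAAAC (permutation test, adjusted p = 0.0141). G hexamers had the largest share far away, with 33.3% at 61 to 100 nt (interval 30.8 to 35.9%), against 22.3% for T and 23.5% for C.

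The bases do not stand at the same places, so they were also compared at a single place. At base 4, 48.7% of AAATAA sites lay at 15 to 30 nt (interval 45.5 to 52.0%), 41.4% of AAACAA (interval 36.2 to 46.9%) and 33.2% of AAAGAA (interval 28.9 to 37.8%). T exceeded G there by 14.7 points ± 14.8 on 16 of 19 autosomes (permutation test, adjusted p = 0.000884), a call lost on the minus strand alone and with only the most downstream site of each run. C exceeded G by 7.93 ± 13.9 (14 of 19, permutation test, adjusted p = 0.0324), a call lost in 4 of 8 alternatives, and T and C did not pass (6.73 ± 17.0, permutation test, adjusted p = 0.125). At base 5 the shares were 39.6% for AAAATA, 37.2% for AAAACA and 36.8% for AAAAGA, and none of the 3 differences passed (1.33 ± 12.7, 0.935 ± 12.7 and 0.399 ± 12.2 points, with a lowest adjusted p of 0.707, permutation test). Whether the effect of the base differs between base 4 and base 5 was not tested. With 321 to 895 sites per hexamer spread over 19 autosomes, differences of a few points were not detectable here. At base 6 the shares were 27.2% for AAAAAT, 24.5% for AAAAAG and 14.9% for AAAAAC, and their differences were not tested.

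By place, the share at 15 to 30 nt was higher with the change at base 1 or 2 than with it at base 5 or 6. Sites with the change at base 5 were not close as a group, with a median of 30 nt and 4.29% at 6 to 8 nt. At 15 to 30 nt lay 46.4% of the sites with the change at base 1 or 2 (1448 sites, of which 1434 are TAAAAA) and 33.1% of those with it at base 5 or 6, a difference of 12.2 points ± 5.35 on 19 of 19 autosomes (permutation test, adjusted p = 2.33e-05). This comparison is one of TAAAAA, since without it only ATAAAA remains at these places. AACAAA, the single change from AATAAA, did not stand apart. Its share of 41.5% (interval 36.1 to 47.0%) exceeded that of the other places by 2.70 points ± 14.9, positive on 9 of 19 autosomes (permutation test, adjusted p = 0.493).

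**Figure D3:**
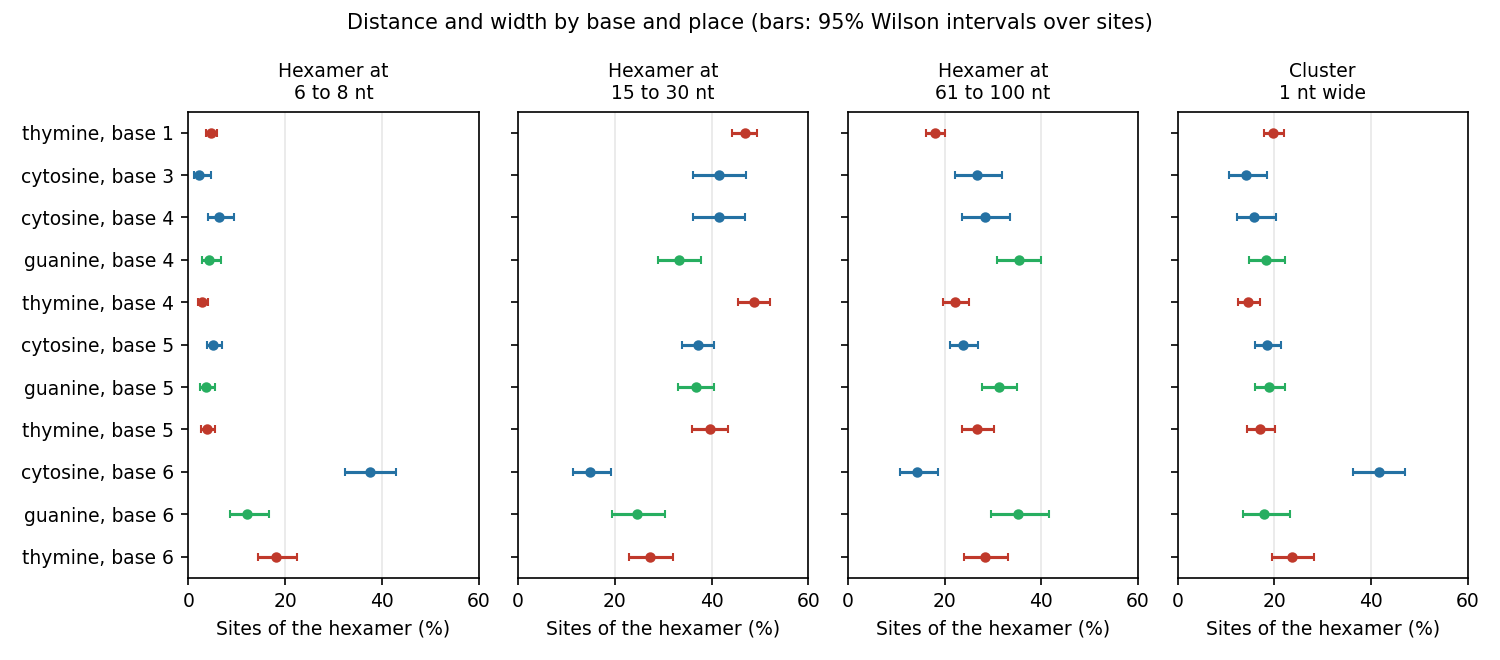
Percent of the sites of each of 11 hexamers, by base and place, with the hexamer at 6 to 8, 15 to 30 and 61 to 100 nt and with a cluster 1 nt wide; bars are 95% Wilson intervals over sites (T at base 2, with 14 sites, is left out). Cytosine at base 6 stands apart in 3 panels, with 37.5% at 6 to 8 nt, 14.9% at 15 to 30 nt and 41.6% of clusters 1 nt wide.

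Within the window of 15 to 30 nt, the mean distances of the hexamers lay within 2 nt of each other. The mean was 22.7 nt for TAAAAA (672 sites), 22.5 nt for AAATAA (436 sites) and 21.3 nt for AAAATA (260 sites), against 21.5 nt for AATAAA. Among the 11, TAAAAA was the highest and AAAATA the lowest, and the others ran from 21.5 nt for AAAGAA to 22.4 nt for AAACAA. That pair was singled out as the extremes, so no test of its difference is given. TAAAAA was also uneven at short distances, with 24, 42, 40, 19 and 10 sites at 7, 8, 9, 10 and 11 nt and with 0 sites at 6 nt and at 12 nt.

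Hexamers with the change at base 6 lay at 6 to 8 nt more often than the others, though most of their sites lay farther away. At 61 to 100 nt lay 25.3% of them (interval 22.6 to 28.2%). At 6 to 8 nt lay 23.1% of the 916 sites with the change at base 6 (interval 20.5 to 26.0%) and 4.12% of the others (interval 3.62 to 4.67%). By autosome the first share ran from 8.51% through a median of 22.5% to 36.7% and the second from 1.69% through 4.52% to 6.34%, with no overlap. The difference was 19.02 points ± 6.97, positive on 19 of 19, and 11.9 points without AAAAAC. No p is given, because base 6 was singled out for this difference. Such sites made up 212 of the 439 at 6 to 8 nt, or 48.3%, and 8.11% of those at 15 to 30 nt. All 3 hexamers with the change at base 6 were most frequent at 7 nt, with 74 sites for AAAAAC, 34 for AAAAAT and 20 for AAAAAG.

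The hexamer AAAAAC was the extreme among them. It had 118 of its 315 sites at 6 to 8 nt, or 37.5% (interval 32.3 to 42.9%), and a median distance of 11 nt. AAAAAT had 18.1% there (interval 14.4 to 22.4%) and a median of 29 nt. AAAAAG had 12.03% (interval 8.51 to 16.7%) and a median of 43 nt. AAAAAC exceeded the other 2 together by 21.02 points ± 10.3 on 19 of 19 autosomes, and by 13.4 points over clusters wider than 1 nt. AAAAAC was singled out for its short distances, so no p is given here either. Its density per nt at 6 to 8 nt was 34.96 times that at 61 to 100 nt (exact binomial interval 24.6 to 50.5), against 8.50 for AAAAAT (interval 6.13 to 11.7) and 4.55 for AAAAAG (interval 2.88 to 7.01). For AAAAAA this ratio was 25.5 (interval 21.3 to 30.6) and for the variants with 4 A 0.843 (interval 0.740 to 0.956). AAAAAC and AAAAAA were thus alike in an excess beside the cluster, which the variants lacked.

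AAAAAC sites also lay apart from other sites more often than those of the other 5-A hexamers. Another site of the same strand lay within 1 kb for 40.0% of AAAAAC sites (interval 34.7 to 45.5%), against 73.6% for AAAAAT, 78.8% for AAAAAG and 43.3% for AAAAAA (interval 40.9 to 45.9%). The share was 46.2% for AATAAA (interval 45.8 to 46.6%) and 55.7% over all sites with a hexamer. The difference from AAAAAT and AAAAAG together was -34.9 points ± 13.4, negative on 19 of 19 autosomes. It was also found within a window of short distances. Among sites with the hexamer at 6 to 14 nt, 21.8% of 197 AAAAAC sites had such a neighbour and 59.8% of 704 other 5-A sites. This difference was -38.4 points ± 16.5, negative on 18 of 19 autosomes with a tie on the other. It was -31.5 with all sites at 6 to 8 nt, and -14.9 when each run gave only its last site. No p is given for the neighbours of AAAAAC, because this hexamer was singled out with the values seen. The AAAAAC clusters were narrow, with a median width of 2 nt against 9 nt over all 5-A sites, and 41.6% were 1 nt wide (interval 36.3 to 47.1%).

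Among the 5-A sites as a whole, short distance, narrower clusters and fewer neighbours went together, and AAAAAC carried part of this. Of the 5-A clusters with the hexamer at 6 to 14 nt, 33.7% were 1 nt wide, against 16.9% at 15 to 30 nt (difference 15.8 points ± 10.3, on 17 of 19 autosomes, permutation test, adjusted p = 8.62e-05). A neighbour within 1 kb was present for 51.5% and 73.0% of them (difference -21.4 points ± 6.53, on 19 of 19, permutation test, adjusted p = 2.33e-05). Without AAAAAC these differences were 9.08 (permutation test, adjusted p = 0.00345) and -12.9 points (permutation test, adjusted p = 2.78e-05). Of all sites with a hexamer, at any distance, 55.7% had a neighbour within 1 kb. The 5-A sites at 6 to 14 nt lay nearer this share than those at 15 to 30 nt. At 31 to 60 nt and 61 to 100 nt the 5-A clusters resembled those at 15 to 30 nt, with 17.4% and 16.2% 1 nt wide. Clusters 1 nt wide made up 19.2% of all 5-A sites (interval 18.2 to 20.2%), against 13.6% of the variants with 4 A and 31.3% of AAAAAA. They made up 20.9% of AAGAAA (interval 19.7 to 22.1%) and 12.2% of all sites with a hexamer. The 5-A share was above that of the variants by 5.69 points ± 1.72 on 19 of 19 autosomes and differed from that of AAAAAA by -12.9 ± 7.58, lower on 18 of 19 (both permutation test, adjusted p = 2.33e-05). Read depth at the sites, which bears on width, was not analysed here.

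As a group the 5-A sites did not lie clearly closer to other sites than the variants did. Both had a neighbour within 100 nt more often than all sites with a hexamer (21.8%) or AATAAA (15.3%), as had AAGAAA with 33.8%. Of the 5-A sites, 33.7% had another site of their strand within 100 nt (interval 32.5 to 34.8%), as had 32.2% of the variants (interval 31.7 to 32.8%), a difference of 1.47 points ± 2.89 on 11 of 19 autosomes (permutation test, adjusted p = 0.0522). The call depended on the setting, and without TAAAAA the difference was 2.73 (permutation test, adjusted p = 0.00185). The hexamers differed here, from 12.4% for AAAAAC and 25.4% for AACAAA to 42.8% for AAAATA, with ATAAAA left out for its 14 sites. Without AAAAAC the difference from the variants was 2.56 (permutation test, adjusted p = 0.0030). Of the 6432 sites, 334 (5.19%) may share their hexamer with a neighbouring site listed with the same one, at some counting point within their clusters, and 38, 42 or 30 do with a fixed one (upstream edge, downstream edge or midpoint), so the sites are not all separate occurrences. An opposite-strand cluster overlapped 1.29% of them (interval 1.04 to 1.60%), against 1.53% of all sites (interval 1.47 to 1.59%).

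Within groups of neighbouring sites the 5-A hexamers were found in the middle and upstream more than at the end. A run here is a chain of sites on 1 strand with no gap above 2 kb. A 5-A hexamer was listed for 5.13% of 25530 sites that began a run (interval 4.86 to 5.40%) and for 3.07% of the 25530 that ended one (interval 2.87 to 3.29%). Sites in the middle of runs had one in 6.11% of cases (interval 5.90 to 6.33%), and sites outside any run in 3.14% (interval 2.98 to 3.30%). By autosome it ran from 4.27 to 6.20% in the most upstream and from 2.25 to 4.17% in the most downstream sites, with no overlap. The difference was -2.06 points ± 0.663, negative on 19 of 19 autosomes (permutation test, adjusted p = 2.33e-05), and -0.972 with runs joined at 0.5 kb.

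**Figure D4:**
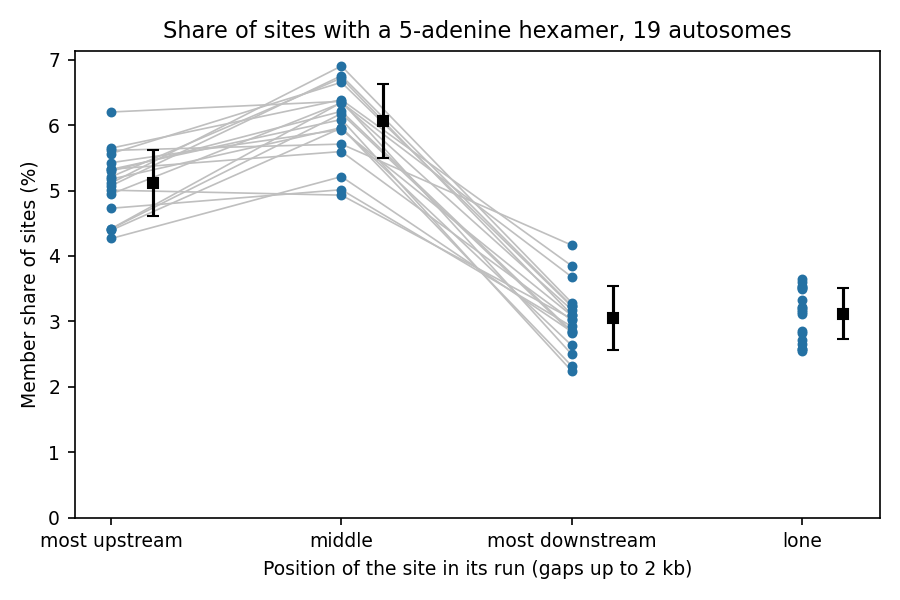
Share of sites with a 5-A hexamer, in percent, by position in a run, with a point for each of 19 autosomes, grey lines joining an autosome's positions in a run, and squares with bars for the mean and SD over autosomes. The most downstream sites (mean 3.06%) lie below the most upstream sites (mean 5.11%) on every autosome.

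Of the 12 hexamers, 11 were less frequent among the most downstream than among the most upstream sites, ATAAAA with 2 against 1 site being the exception. The ratio of the shares, downstream over upstream, was lowest for AAAGAA, at 0.383 (41 against 107 sites), and highest of the 11 for AAAATA, at 0.795 (93 against 117 sites). The A-rich hexamers and the variants shared this. The same ratio was 0.600 for all 5-A sites, 0.527 for AAGAAA, 0.639 for AAAAAA and 0.730 for the variants with 4 A, against 1.49 for AATAAA, and these differences were not tested. Of 4161 5-A sites that were not the last of their run, 2055 lay in a run whose most downstream site had AATAAA, 49.4% (interval 47.9 to 50.9%), against 51.5% for the variants with 4 A (interval 50.8 to 52.3%) and 52.2% over all sites that were not the last of a run (interval 51.8 to 52.6%). The 5-A share was thus near that of sites in general.

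The 5-A hexamers were found at a similar share throughout the genome. Among sites with a hexamer they made up 4.94% ± 0.376 (SD over 19 autosomes), from 4.15% on chromosome 6 through a median of 5.00% to 5.50% on chromosome 19. Chromosome X held 173 and other nuclear sequences 13. The plus strand had a share of 5.16% and the minus strand one of 4.78%, a difference of 0.316 points ± 0.601 on 14 of 19 autosomes (permutation test, adjusted p = 0.0478). That call was lost over clusters wider than 1 nt (0.311, permutation test, adjusted p = 0.0956). Most runs held none or a single 5-A site, with 21534 runs without one and 3250 with 1. The highest number was 7, in 3 runs. A run of chromosome 1, minus strand, from 88239954 to 88254802, held 76 sites in all. A run of chromosome 12, plus strand, from 112777818 to 112786125, held 37, and a run of chromosome 9, minus strand, from 78322426 to 78329350, held 33. The widest 5-A cluster, at 23647319 to 23647713 of chromosome 13, plus strand, was 395 nt wide and had AAAGAA at 91 nt. Which genes lie at these places was not analysed here.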

How the data were processed

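The authors deposited 1 catalogue of poly(A) clusters, not split by library, that gives positions, strand, hexamer and distance in nt, per the file headers. The build mm9 and the tools bedtools, STAR and Trimmomatic are named in the submitters' processing notes. Not given in the sources used here are how clusters were formed and kept, whether ends primed inside A-rich stretches were removed, the order of the hexamer search and the point from which a distance is counted. Nothing was removed on these grounds here.

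The mitochondrial genome was left out. Widths are end minus start, and gaps run between cluster edges. Shares are over sites, with Wilson intervals (95%), and ratios of site densities have exact binomial intervals. Differences were tested over the 19 autosomes, each weighing the same, by a 2-sided permutation test that flipped signs in 100000 resamples (smallest p 1e-05), adjusted by Benjamini-Hochberg over 28 comparisons at a threshold of 0.05. The members and lists were chosen with earlier results of these data known. Of the comparisons, 14 were chosen after the values had been seen, as was the count of hexamers in view. The test and that count were tested on simulated data. No gene was named, since no annotation of mm9 was used; every hexamer was named, and single sites only as the widest cluster and the runs with most 5-A sites. Alternatives were strand, width, runs, windows, left-out sites or hexamers, and counting points. The tools were scipy 1.17.1, pandas 2.3.3, numpy 2.4.6 and, for figures, matplotlib 3.10.9, under Python 3.11.15.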

Additional observations from a re-analysis of the deposited data

Results flagged for a closer look

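The mitochondrial genome is outside the rule and outside every comparison above. Of its 80 clusters, 7 were listed with a 5-A hexamer, 8.75% (95% Wilson interval 4.30 to 17.0%), above the 3 sites (3.75%) that a count of 0 allows. The nuclear share of 4.43% of clusters lies within that interval, so the share does not stand apart from the nuclear one. Of these, 4 had AAATAA, 1 had TAAAAA, 1 had AAAATA and 1 had AAAAAG.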

How the results depend on the processing

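No paired analysis was possible because the catalogue carries no value of a library or replicate. Of 233 alternatives with a test, 201 kept the direction and the side of the threshold, and 15 of the 28 comparisons kept both under all alternatives tried. Differences are in percentage points. With a window of 10 to 35 nt, the 5-A hexamers against AAAAAA turned to -3.07 and against AAGAAA to -0.936, C against G rose to 5.34 past the threshold (5.79 without AAAAAC), T against C at base 4 rose to 9.32 past it, C against G at base 4 lost its call at 4.19, and at base 5 T against G turned to -0.269 and T against C to -3.29. The ratio of the main peak to the far distances fell to 3.09, and 6 of 22 ratios of single hexamers left their interval. For a neighbour within 100 nt, the difference from the variants passed the threshold on the minus strand (2.43), over clusters wider than 1 nt (3.26), without TAAAAA (2.73), without AAAAAC (2.56), with ATTAAA among the variants (6.89) and within 200 nt (1.64), and turned to -0.550 when runs gave only their last site. With lone and last sites alone, 5 called differences grew over 1.5 times, to 9.02 and 10.2 against the variants (6 to 8 nt and 1 nt wide), 14.3 and 14.97 for T against G and C, and 21.6 for base 1 or 2 against 5 or 6. With them too, C against G turned to -0.637, at base 4 T against G (14.7) and C against G (6.32) lost their calls, at base 5 T against G turned to -0.505 and C against G to -0.759, and the strand difference lost its call at 0.313. On the minus strand alone, at base 4 T against G (12.5) and C against G (3.59) lost their calls and T against C at base 5 turned to -0.0323. Over clusters wider than 1 nt, T against C (4.19), C against G at base 4 (6.50) and the strand difference (0.311) lost their calls, and T against C at base 5 turned to -0.0347. C against G at base 5 also turned to -1.54 on the plus strand, to -0.112 for clusters up to 50 nt and to -0.276 without sites at 99 and 100 nt. Without TAAAAA, bases 1 and 2 hold only the 14 ATAAAA sites at 100 nt, and their difference from bases 5 and 6 was -32.5. Sites that may share a hexamer numbered 38, 42 or 30 when distances were counted from the upstream edge, the downstream edge or the midpoint. Counted so, cases with a 5-A hexamer in view and AATAAA or AAGAAA or a variant with 4 A listed numbered 405, 339 and 352 in place of 182, and cases the other way 53, 105 and 52 in place of 3, so the single order was seen only with cases that hold for every counting point. Leaving out AAAAAC was an alternative chosen after seeing the data. Apart from these the causes were not tested. Read depth per site is unknown, which limits what width and neighbours can show.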
